A study of Gasterosteus aculeatus with 227 samples.

Results

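The 2 genes described here are vtg3, a gene of egg yolk, and zp3d.1, a gene of the egg coat. They were taken by symbol from the count tables, which list 25994 genes, and both lie on autosomes in the reference gene table. Threespine stickleback (Gasterosteus aculeatus) of both sexes came from 1 wild population in the breeding season and received no treatment; ages are not given in the sources used here. RNA of their liver, brain and gills was read with QuantSeq FWD, a method that sequences near the 3′ end of polyadenylated transcripts. A transcript gives about 1 fragment whatever its length, so levels are given as counts per 1000000 counts of the library (CPM) with no length correction. The groups are females and males of each tissue: 38 female and 39 male livers, 39 female and 39 male brains, and 36 female and 36 male gills. A tag joins the tissues of a fish, and 69 of the 80 fish have all 3 tissues.

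In egg-laying vertebrates, vitellogenins are made by the liver under the control of estrogen, travel in the blood and are taken up by growing oocytes, where they are cut into yolk proteins. In zebrafish, vtg3 encodes a vitellogenin without the phosphate-rich phosvitin domain. Zona pellucida (ZP) glycoproteins build the coat around the egg, and in fishes they are made in the ovary, in the liver or in both, depending on the gene and the species. Males carry the same genes and can make vitellogenin when exposed to estrogen, which is why it serves as a marker of such exposure. The ovary, the tissue that holds the oocytes, was not analysed here.

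Depth and sex labels bear on every value below. Total counts ran from 8829 to 27770413 in liver, 86631 to 17558655 in brain and 6599953 to 28095335 in gills. Fewer than 1000000 counts were found in 3 female and 7 male livers and in female brain replicate 8, and the levels below leave these libraries out unless they are named. Of the listed tissue markers, 12 of 16 brain genes, 9 of 16 gill genes and 7 of 16 liver genes are in the tables, and in the remaining libraries each list had its highest median sum in its own tissue. The brain sums did not overlap those of the other tissues. The gill sums overlapped with brain (at least 325 CPM in gills and at most 477 CPM in brain), where the gill markers atp6v1ba and calca were higher than in gills, and the liver sums overlapped with brain, where tfa (transferrin) was high. Without tfa the liver sums did not overlap with brain. As a check of the sex labels that does not use either gene, X-chromosome expression was scored per library (the X score: median X gene minus median autosomal gene, log2, each gene centred on its tissue mean). In 6 libraries the score lay nearer to the median of the other sex: female livers replicates 17 and 23, male livers replicates 32 and 35, and the brain and gill library of 1 male fish. The main results that rest on them are given with and without them. The livers apart, brain and gill libraries of the 2 females and gill libraries of the 2 males in question matched their labels.

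Vtg3 was above all a female liver transcript. In female livers the CPM ran from 15.2 through a median of 9308 to 15324 (n = 35), against 6.80, 17.6 and 11575 in male livers (n = 32). In the brain the lowest, median and highest levels were 0.582, 12.2 and 45.9 CPM in females (n = 38) and 0.129, 9.65 and 43.7 CPM in males (n = 39). In the gills they were 0.152, 1.38 and 26.2 CPM in females and 0.254, 3.36 and 60.3 CPM in males (n = 36 each). By median the order was thus female liver, male liver, female brain, male brain, male gills and female gills. In bulk samples, fewer cells of a type and less RNA per cell cannot be told apart. Only the first step of that order separated most libraries: male livers overlapped both brain groups, the brain groups overlapped each other over nearly their whole range, and so did the gill groups. No library of this depth was without a vtg3 count, but 2 female gills and 1 male brain held 3 counts or fewer.

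**Figure D1:**
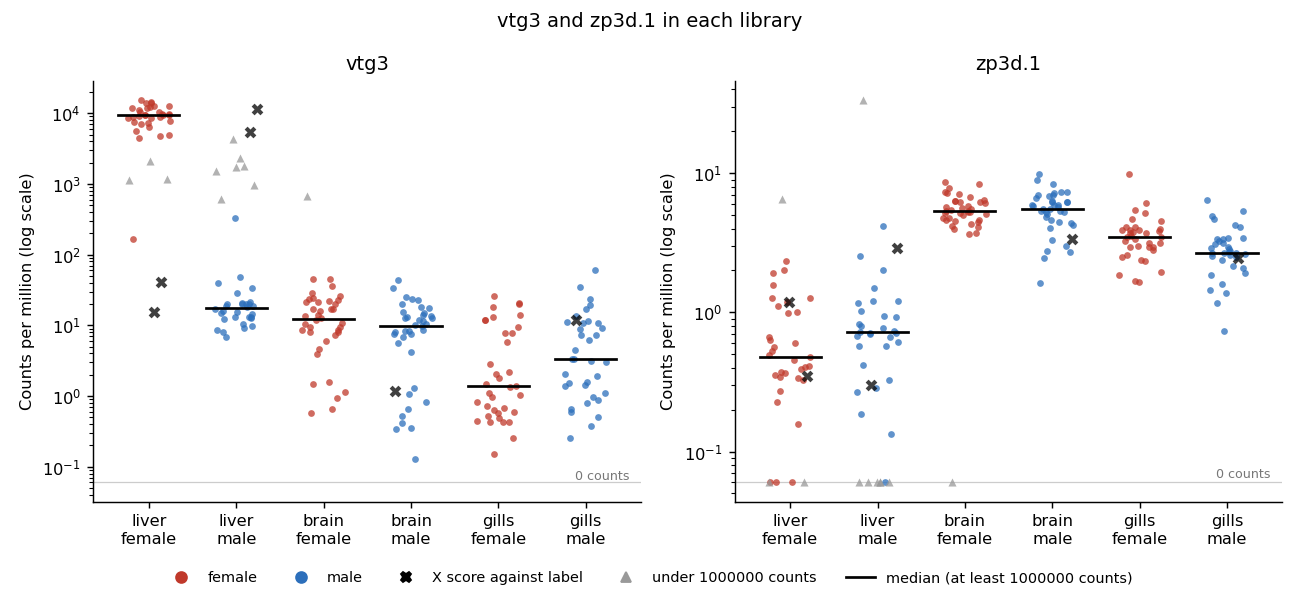
CPM (log scale) of vtg3 and zp3d.1 in every library, by tissue and sex, with females left of males. Lines are medians of libraries with at least 1000000 counts, crosses are libraries whose X score goes against the label, grey triangles are libraries with fewer counts, and points on the grey line have 0 counts. The median of vtg3 is 9308 CPM in female livers and 17.6 CPM in male livers, while zp3d.1 is highest in brain and lowest in liver.

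The overlap between female and male livers came from few libraries. Female livers replicates 17 and 23 held 40.4 and 15.2 CPM of vtg3, and male livers replicates 32 and 35 held 5395 and 11575 CPM. These are the 4 livers whose X score went against the label. Their scores were -0.07 and -0.08 for the females and 0.25 and 0.33 for the males, where the other female livers ran from 0.21 to 0.69 and the other male livers from -0.63 to -0.43. The Y chromosome gave another picture for the females. Summed over all 526 Y genes of the tables, female livers replicates 17 and 23 held 384 and 353 CPM, within the 139 to 530 CPM of the other female livers, so their Y level matched the label although their X score did not. Male livers replicates 32 and 35 held 1576 and 890 CPM, above all female livers and below the other male livers, which had 2868 to 5386 CPM.

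Among livers with a matching X score, 32 of 33 females lay above all 30 males, and the female median was 573 times the male median. This leaves out female livers replicates 17 and 23, at 40.4 and 15.2 CPM, although their Y level matched the label. A single library of each sex stood between the groups: female liver replicate 21 held 167 CPM, with an X score of 0.55, and male liver replicate 28 held 333 CPM, with a score of -0.45. Without them, the females began at 4526 CPM and the males ended at 47.7 CPM. Vtg3 also moved with the total count of a library within each sex, with a Spearman correlation of -0.46 over 33 female livers (Pearson -0.27, permutation adjusted p of 0.0197 for Spearman and 0.216 for Pearson) and -0.55 over 30 male livers (Pearson -0.35, permutation adjusted p of 0.00448 and 0.0994). The part of depth in the levels was not tested.

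**Figure D2:**
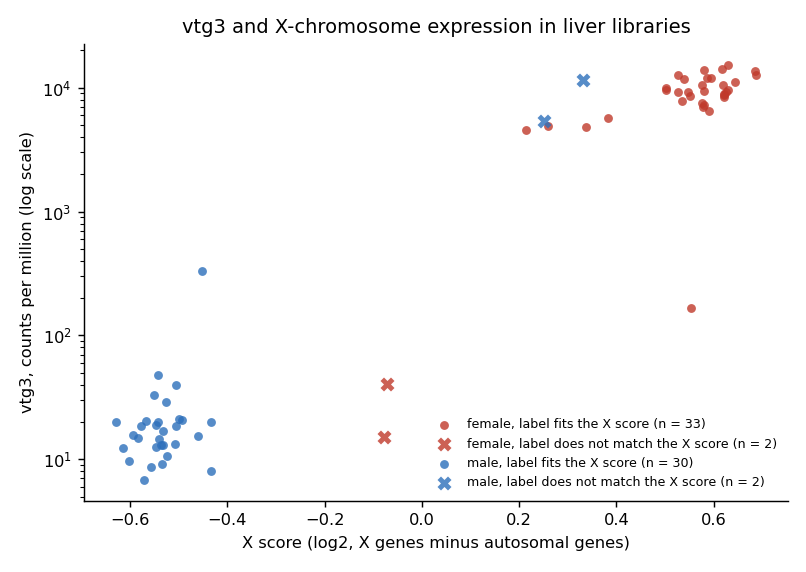
Vtg3 in CPM (log scale) against the X score (log2) of each liver library with at least 1000000 counts, females in red and males in blue, crosses marking labels that the score does not match. The 2 male crosses lie among the females at 5395 and 11575 CPM, and the 2 female crosses lie at 15.2 and 40.4 CPM, within the range of the males.

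The shallow livers had vtg3 at levels between those groups in both sexes. The 3 shallow female livers held 1134, 1163 and 2083 CPM, and the 7 shallow male livers ran from 610 through a median of 1762 to 4340 CPM. These libraries also held brain marker transcripts, summing to 1419 to 6001 CPM in the females and 113 to 5778 CPM in the males, where deeper livers had at most 165 CPM in females and 160 CPM in males. The part of these other-tissue transcripts in the vtg3 values was not tested. Female brain replicate 8, with 86631 counts in all, held 58 counts of vtg3, or 670 CPM, far above every other brain.

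The sex difference of vtg3 passed the test in liver only. With all libraries, the log2 fold change (female over male) was 3.62 with a standard error (SE) of 0.71 in liver, at an adjusted p of 2.64e-05 in edgeR's quasi-likelihood test. Among the genes tested in liver, 32.4% were called and 17.4% were called higher in females, while 15% were called higher in males, so a call by itself was common there. In livers of at least 1000000 counts whose X score matched the label, vtg3 was higher in females by 8.75 on the log2 scale (SE 0.45, edgeR adjusted p of 7.00e-27), and 45.1% of genes were called. In brain the sex difference was 0.65 (SE 0.38, edgeR adjusted p of 0.494), and 0.42 without female replicate 8, in a tissue where 7.24% of genes were called. In gills it was -0.64 (SE 0.44, edgeR adjusted p of 0.398), and -0.35 without male replicate 36, the highest gill library, in a tissue where 13.5% of genes were called. The size of the liver difference thus depended on which libraries entered, while its direction and call did not. No fit left out male livers replicates 32 and 35 but kept female livers replicates 17 and 23, whose Y level matched the label.

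An interaction term compared the size of this sex difference between tissues. The female excess of vtg3 was larger in liver than in brain by 2.77 on the log2 scale (SE 0.73, edgeR adjusted p of 0.00176) and larger in liver than in gills by 4.30 (SE 0.75, edgeR adjusted p of 1.04e-06). In libraries of at least 1000000 counts with a matching X score these values were 8.21 (SE 0.61) and 9.23 (SE 0.63). Between gills and brain the interaction was -1.53 (SE 0.74, edgeR adjusted p of 0.519). The edgeR fit has no term for the fish, although most fish gave several tissues. With the fish as a random block in voom, over all libraries, liver exceeded brain by 6.83 (SE 0.65, voom adjusted p of 3.82e-19). Liver then exceeded gills by 8.31 (SE 0.78, voom adjusted p of 3.87e-19). Gills against brain gave -1.48 (SE 0.80, voom adjusted p of 0.454). Voom also fits a linear model of log2 CPM in place of edgeR's model of counts, and it was not run without the block. The part of the fish term in the larger values was thus not tested. Over all genes tested, 24.6% were called for liver against brain, 24.9% for liver against gills and 0.527% for gills against brain.

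Within the same fish, vtg3 was higher in liver than in the other tissues in nearly every female and in most males. The mean log2 difference between liver and brain was 9.44 (SD 1.99) in females, positive in 31 of 31 fish, and 1.59 (SD 2.38) in males, positive in 20 of 30, over libraries with a matching X score. Between liver and gills it was 11.86 (SD 2.52) in females, positive in 31 of 31 fish, and 2.36 (SD 2.34) in males, positive in 22 of 27. Each of these 4 passed a two-sided sign-flip permutation test with 100000 resamples after adjustment over 12 comparisons, with an adjusted p of 1.33e-05 in females, and of 7.09e-04 (liver and brain) and 3.60e-05 (liver and gills) in males. Gills stood below brain by 2.34 (SD 2.20) in females, at the smallest p these permutations can give, 1.00e-05, with gills higher in only 4 of 34 fish. In males the difference between gills and brain was -1.01 (SD 2.78, permutation adjusted p of 0.0409, higher in 14 of 34 fish) and became -0.89 (adjusted p of 0.0699) once the male fish whose brain and gill X scores went against the label was included. With the livers of unmatched X score included, liver exceeded brain by 8.93 in females (positive in 32 of 33 fish) and by 2.02 in males (positive in 21 of 31 fish). These sizes depended on the scaling: with TMM factors they were 10.96 in females and 3.66 in males.

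The level of vtg3 in male livers moved with a small set of other genes. The genes whose log2 CPM followed vtg3 most closely over 30 male livers with a matching X score were LOC120823934, with a Spearman correlation of 0.959, LOC100190880 with 0.926, LOC120809899 with 0.914, LOC120808851 with 0.901 and LOC120810467 with 0.879, of 13175 genes compared. The tables give no names for them. In the reference gene table, LOC100190880 and LOC120823934 are direct neighbours on chromosome 8, the chromosome of vtg3, with 13 genes between the pair and vtg3. LOC120808851 and LOC120809899 are direct neighbours on the X chromosome.

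All 5 were female liver transcripts of very high level. LOC120810467 had a median of 156016 CPM in female livers and 283 CPM in male livers. For LOC120808851 the medians were 106904 CPM (female) and 165 CPM (male), and for LOC100190880 they were 81894 CPM (female) and 159 CPM (male). LOC120823934 had 59044 CPM in females and 152 CPM in males, and LOC120809899 had 7094 CPM in females and 8.06 CPM in males. All 5 were called higher in females by edgeR with all libraries, at log2 fold changes from 2.57 (LOC120823934) to 4.23 (LOC120809899). The 5 genes together took a median of 44.0% of all counts in a female liver, with a range of 1.61% to 58.0%, and 0.0808% in a male liver, with a range of 0.0241% to 2.01%. The CPM of any other gene in a female liver is a share of a library that these transcripts fill to up to 58.0%. The lowest female share belonged to replicate 21 and the highest male share to replicate 28, the libraries that also stood between the sexes in vtg3.

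The share of vtg3 relative to these 5 genes was lowest by median in liver. As a share of their summed CPM, the median of vtg3 was 2.34% in female livers (range 1.04% to 5.42%) and 2.06% in male livers (range 0.934% to 3.14%). It was 3.11% in female brains (range 1.5% to 21.1%) and 3.05% in male brains (range 1.70% to 10.0%). In gills it was 3.90% in females (range 1.19% to 18.6%) and 4.64% in males (range 1.35% to 52.4%). In gills with at least 100 CPM of the 5 genes, the median was 2.57% in females and 2.36% in males, close to female livers. Brains of that level had 3.04% in females and 2.85% in males. In the livers with a label against the X score the share of vtg3 was 1.98% and 2.58% in the 2 females and 1.82% and 2.24% in the 2 males. The 7 shallow male livers had 1.77% to 2.65%. Since the 5 genes were picked by their likeness to vtg3 in male livers, the male liver values are a description. The female liver, brain and gill values were not used for the choice. Over 33 female livers, vtg3 and the sum had a Spearman correlation of 0.209 (permutation adjusted p of 0.282). The Pearson value there was 0.89 (permutation adjusted p of 3.15e-04). Without the 2 libraries farthest from the median, the Spearman value was 0.047 and the Pearson value 0.44.

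**Figure D3:**
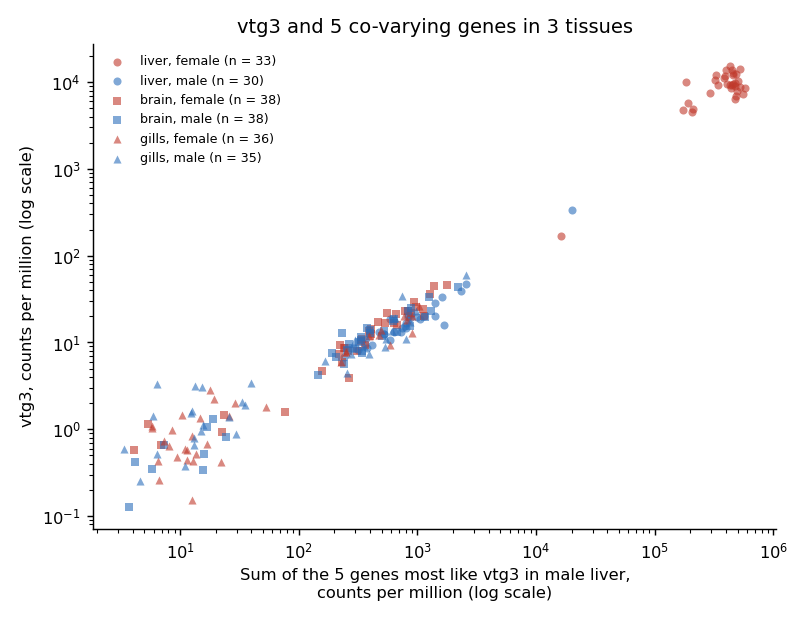
Vtg3 against the summed level of the 5 genes most like it in male liver, both in CPM on log scales, in libraries with at least 1000000 counts and a matching X score. Shapes give the tissue and colours the sex, and the 3 tissues lie along 1 band, with vtg3 from 0.129 CPM in a male brain to 15324 CPM in a female liver.

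Outside the liver, libraries of both sexes were divided into a higher and a lower set by the summed level of the 5 genes. Since these genes were picked by their likeness to vtg3, the vtg3 ranges of the sets describe this division and do not test it. At least 100 CPM of the 5 genes, a limit chosen after seeing a gap in the values, was found in 32 of 38 female and 29 of 38 male brains and in 12 of 36 female and 16 of 35 male gills. In this higher set vtg3 ran from 3.95 to 45.9 CPM in female brains and from 4.24 to 43.7 CPM in male brains. In the lower set it ran from 0.582 to 1.59 CPM in female brains and from 0.129 to 1.31 CPM in male brains. Gills of the higher set held 5.90 to 26.2 CPM in females and 4.41 to 60.3 CPM in males, and gills of the lower set 0.152 to 2.84 CPM in females and 0.254 to 3.39 CPM in males. Among 68 fish with both tissues, 23 were in the higher set in both, 33 in brain only, 3 in gills only and 9 in neither. As a share of the summed 5 genes, the median of vtg3 in the higher set was 3.04% in female and 2.85% in male brains and 2.57% in female and 2.36% in male gills. In the lower set it was 7.88% in female and 6.02% in male brains and 6.03% in female and 7.14% in male gills. The higher set was thus more common in brain than in gills. Of the fish in the higher set in gills, 23 were also in it in brain and 3 were not. Whether the 2 sets shared fish beyond their sizes was not tested.

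Within the higher set vtg3 followed the 5 genes closely. The Spearman correlation was 0.945 over 32 female brains (Pearson 0.94) and 0.897 over 29 male brains (Pearson 0.92), each with a permutation adjusted p of 5.12e-05 over 41 added relations. In gills it was 0.853 over 12 females (Pearson 0.90, permutation adjusted p of 0.00205) and 0.868 over 16 males (Pearson 0.88, permutation adjusted p of 2.46e-04). Leaving out the 2 libraries farthest from the median gave Spearman values of 0.933 in female brains, 0.876 in male brains, 0.758 in female gills and 0.807 in male gills. In the lower set, where vtg3 is at or below 3.39 CPM, the correlation was 0.829 over 6 female brains, 0.80 over 9 male brains, 0.330 over 24 female gills and 0.488 over 19 male gills. Of these 4, male brains passed with a permutation adjusted p of 0.0300, and the value was 0.714 without the 2 farthest libraries. Some libraries of the lower set held few vtg3 counts, down to 1 in a female gill and 2 in a male brain.

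Liver marker transcripts were also present in these brains and gills, and vtg3 moved with them in the higher set. Of the 7 liver markers in the tables, tfa was left out of the sum, since its median was 2921 CPM in female and 2445 CPM in male brains. The other 6 are blood-clotting and blood-protein genes of the liver (fgb, fgg, f2, plg, serpinc1, apobb.1). Their sum had a median of 61.9 CPM in female and 44.1 CPM in male brains, and of 5.81 CPM in female and 20.8 CPM in male gills, against 6601 CPM in female and 24130 CPM in male livers. In the higher set, the Spearman correlation of vtg3 with this sum was 0.675 over 32 female brains (Pearson 0.65, permutation adjusted p of 2.46e-04) and 0.470 over 29 male brains (Pearson 0.40, permutation adjusted p of 0.0250). It was 0.874 over 12 female gills (Pearson 0.85, permutation adjusted p of 0.00147) and 0.588 over 16 male gills (Pearson 0.70, permutation adjusted p of 0.0385). The male gill value became 0.433 without the 2 farthest libraries. In the lower set it was -0.09 over 6 female and 0.767 over 9 male brains (permutation adjusted p of 0.0414 in males), and -0.07 over 24 female and 0.07 over 19 male gills. Over both sets of 35 male gills, which lie apart in vtg3, it was 0.238 (Pearson 0.30, permutation adjusted p of 0.214) and did not pass. In both sets together it was 0.778 over 38 female brains, 0.563 over 38 male brains and 0.558 over 36 female gills. With tfa kept in the sum, the values over both sets were -0.245 in female and -0.186 in male brains (permutation adjusted p of 0.183 and 0.296). In gills they were then 0.425 in females and 0.321 in males (permutation adjusted p of 0.0250 and 0.0935). The positive relation in brains over both sets thus depended on leaving tfa out.

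**Figure D4:**
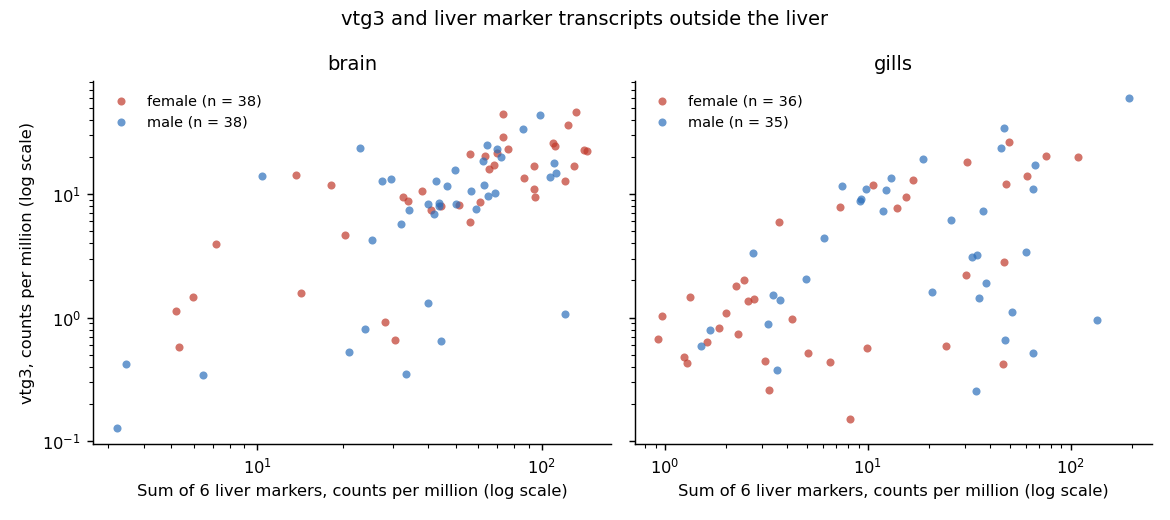
Vtg3 against the summed level of 6 liver markers in brain (left) and gills (right), in CPM on log scales, females in red and males in blue, in libraries with at least 1000000 counts and a matching X score. Over the libraries with at least 100 CPM of the 5 genes most like vtg3 in male liver, Spearman correlations are 0.675 in female and 0.470 in male brains. They are 0.874 in female and 0.588 in male gills.

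The proportion of vtg3 to these markers set male brains and gills apart from male livers. The median quotient of the vtg3 CPM over the summed CPM of the 6 markers was 1.32 in female livers and 0.000626 in male livers. In brain the quotient was 0.224 in females and 0.181 in males, and in gills 0.391 in females and 0.311 in males. Within the same fish, the quotient was higher in the brain than in the own liver in 2 of 31 females and in 30 of 30 males, by a median of 322 times in males. In gills it was higher than in the own liver in 4 of 31 females and in 27 of 27 males, by a median of 474 times in males. Vtg3 and liver markers were thus in another proportion in male brain and gills than in the same male's liver, and the source of these transcripts was not tested.

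The levels of vtg3 in different tissues of a fish were not related past the threshold. Over 6 pairs of tissues and sexes with a matching X score, the Spearman correlation ran from -0.30 (liver and gills, 27 males) to 0.29 (gills and brain, 34 females), with permutation adjusted p from 0.485 to 0.726 over 18 correlations. For liver and brain it was 0.154 in 31 females (Pearson -0.07) and -0.16 in 30 males (Pearson -0.08). With the libraries of unmatched X score included, liver and brain gave 0.167 in 33 females (Pearson -0.05) and -0.24 in 31 males (Pearson -0.32, permutation p of 0.0684 and adjusted p of 0.536). Liver and gills then gave 0.151 in 33 females and -0.37 in 29 males (permutation adjusted p of 0.406).

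Zp3d.1 had a different order of tissues and no called sex difference. Its CPM ran from 3.63 through a median of 5.36 to 8.66 in female brains (n = 38) and from 1.62 through 5.55 to 9.81 in male brains (n = 39). Gills had 1.64, 3.47 and 9.85 CPM in females and 0.734, 2.68 and 6.43 CPM in males (n = 36 each). Livers had 0, 0.476 and 2.34 CPM in females (n = 35) and 0, 0.718 and 4.15 CPM in males (n = 32). By median the order was male brain, female brain, female gills, male gills, male liver and female liver, and the sexes overlapped in each tissue. Outside the liver the spread was smaller than that of vtg3. The standard deviation was 22.3% of the mean in female and 32.6% in male brains, against 77.7% in female and 88.2% in male brains for vtg3. In gills it was 40.8% in females and 40.5% in males, against 134% in females and 142% in males for vtg3.

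In liver, zp3d.1 was close to the limit of detection. It had no count in 3 female and 1 male livers, and 9 of 35 females and 5 of 32 males held 3 counts or fewer, which correspond to 0.307 CPM in a female and 0.250 CPM in a male liver of median depth. Counting error alone sets these limits. The gene did not pass the filter on low counts in liver and has no test there. Female livers spent a median of 44.0% of their counts on the 5 genes above, and the part of this in the lower female median of zp3d.1 was not tested.

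The sex difference of zp3d.1 was not called in brain or gills. In brain the log2 fold change (female over male) was 0.01 (SE 0.10, edgeR adjusted p of 0.989). In gills it was 0.35 (SE 0.13, edgeR adjusted p of 0.0663), with 28 of 36 females above the male median. Over all alternatives the gill value ran from 0.28 to 0.36 and its adjusted p from 0.0613 to 0.134, so it stayed short of the threshold in each. The 3 interactions were not called with all libraries, the largest being -0.42 for liver against gills (SE 0.26, edgeR adjusted p of 0.234).

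Within the same fish, zp3d.1 was lower in liver than in brain in all 33 females, by a mean log2 difference of -3.24 (SD 1.15), and in all 31 males, by -2.99 (SD 1.35). Between liver and gills the difference was -2.63 (SD 1.44) in 33 females and -1.93 (SD 1.30) in 29 males. With matching X scores only, liver minus brain was -3.27 in females and -2.95 in males. Gills stood below brain in 32 of 34 females, by -0.75 (SD 0.55), and in 30 of 35 males, by -0.93 (SD 0.83). All 6 differences passed the sign-flip permutation test at the smallest p it can give, 1.00e-05, or 1.20e-05 after adjustment. The liver values depended on the scaling of the libraries: with TMM factors, which correct for a few very abundant transcripts, liver minus gills was -0.70 in females (permutation adjusted p of 0.00906) and -0.26 in males (permutation adjusted p of 0.263), and liver minus brain was -1.21 in females and -1.35 in males. Under that scaling, liver was higher than brain in 6 of 33 females and 3 of 31 males. It was higher than gills in 11 of 33 females and 10 of 29 males. The difference between gills and brain moved by less than 0.1 with TMM factors.

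No relation of zp3d.1 between tissues passed adjustment. The largest was liver and gills in 27 males with a matching X score, at a Spearman correlation of 0.446 (Pearson 0.22, permutation p of 0.0208, adjusted p of 0.375), and over 31 females the same pair gave -0.24. Gills and brain gave -0.02 over 34 females and -0.04 over 34 males. The 2 genes were also unrelated to each other past the threshold within a library, with Spearman values from -0.02 (35 male gills) to 0.271 (36 female gills) and permutation adjusted p of at least 0.485.

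Ovary and oocyte markers differed in direction between genes. Of 16 listed genes, 10 are in the tables. Their sum had a median of 92.1 CPM in female and 102 CPM in male gills, 43.4 CPM in female and 38.0 CPM in male brains, and 2.90 CPM in female and 6.03 CPM in male livers. In gills the sum was mostly foxl2a, an ovarian transcription factor, with 60.8 CPM in both sexes. Sycp3, a gene of meiotic chromosomes, had higher female medians, with 11.6 CPM in female and 5.55 CPM in male brains and 4.11 CPM in female and 2.47 CPM in male gills. Gdf9, an oocyte growth factor, had lower ones, with 1.63 CPM in female and 2.48 CPM in male brains and 1.32 CPM in female and 1.80 CPM in male gills. The germ cell genes ddx4 and dazl were lower in female gills by median, with 5.28 CPM in female and 13.8 CPM in male gills for ddx4. These genes were named after their values were seen. Zp3d.1 was not related to the sum past the threshold in brain or gills of either sex, with Spearman values from -0.26 (38 female brains) to 0.365 (36 female gills, permutation adjusted p of 0.0543).

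The other egg coat genes had lower medians than zp3d.1 in brain and gills. Of the 4 listed, zpd had no count in any library of at least 1000000 counts, where 3 counts at median depth are 0.238 CPM in female and 0.252 CPM in male brains. Zp3d.2, on the chromosome of zp3d.1 but far from it in the reference table, had a median of 0.247 CPM in female and 0.210 CPM in male brains, 0.530 CPM in female and 0.702 CPM in male gills, and 0 in both sexes in liver. Zpax4 had 0.850 CPM in female and 0.988 CPM in male brains, and 0.102 CPM in female and 0.829 CPM in male livers. Zpld1a, a gene with a ZP domain outside the egg coat set, had 0.697 CPM in female and 0.673 CPM in male brains. Where these genes passed the filter (zpax4 in brain and gills, zpld1a in brain) none was called.

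Of the estrogen signalling genes, esr1 shared the liver pattern of vtg3. Esr1 encodes estrogen receptor alpha, a receptor through which vitellogenin genes are switched on. Over livers with a matching X score it ran from 56.7 through a median of 165 to 409 CPM in females and from 0.532 through 2.94 to 33.7 CPM in males, with no overlap. Its log2 fold change was 5.97 (SE 0.32), and 3.61 (SE 0.51) with all libraries. Female liver replicate 21, with the lowest vtg3 of the matching females, had the lowest esr1. Of the livers left out for their X score, male replicates 32 and 35 held 109 and 192 CPM, within the female range. Female replicates 17 and 23, whose Y level matched the label, held 1.82 and 3.96 CPM, within the male range. Within female livers, vtg3 and esr1 had a Spearman correlation of 0.791 over 33 livers (Pearson 0.66, permutation adjusted p of 5.12e-05). The correlation was 0.757 without the 2 farthest. Of 13175 genes compared in these same livers, esr1 had rank 2 by likeness to vtg3. The adjusted p does not account for that search, so it is no independent test of a link with esr1. Within male livers the Spearman correlation of vtg3 with esr1 was 0.285 over 30 (Pearson 0.32, permutation adjusted p of 0.174).

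In liver, 5 of the 10 listed estrogen signalling genes were tested with all libraries, and 1 was called higher in females (esr1) and 1 higher in males (esr2a). With matching X scores 6 were tested, 4 were called higher in females and 1 higher in males, where 45.1% of all genes were called (32.4% with all libraries). Greb1, an estrogen-responsive gene, then had a log2 fold change of 2.15 (SE 0.41), with medians of 1.01 CPM in females and 0.289 CPM in males. Esr2b, an estrogen receptor beta, had 0.76 (SE 0.19), with medians of 165 CPM in females and 144 CPM in males, and did not pass with all libraries (0.61, edgeR adjusted p of 0.0703). Esr2a, the other estrogen receptor beta, had -0.64 (SE 0.17), with 6.99 CPM in females and 15.1 CPM in males. Shbg, whose protein carries sex steroids in blood, had 0.39 (SE 0.12), although its median was 511 CPM in females and 568 CPM in males. Its sign depends on the scaling: with library totals only, it was -0.04.

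In brain, 1 of 7 tested genes of the list was called higher in females (pgr) and 1 higher in males (esr2b). For gills it was 1 of 6 higher in females (esr2a) and 1 higher in males (esr2b). The share called among all genes tested was 7.24% in brain and 13.5% in gills. Whether the list departs from these shares was not tested. Esr2b was higher in males in both, with a log2 fold change of -0.49 (SE 0.13) in brain and -0.40 (SE 0.12) in gills. Esr2a was higher in female gills by 1.06 (SE 0.17), with medians of 5.18 CPM in females and 2.46 CPM in males. Pgr, the progesterone receptor, was higher in female brain by 0.81 (SE 0.18), with medians of 2.40 CPM in females and 1.35 CPM in males. Esr1 was not called in either tissue, at -0.19 (SE 0.10) in brain and -0.42 (SE 0.21) in gills.

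**Figure D5:**
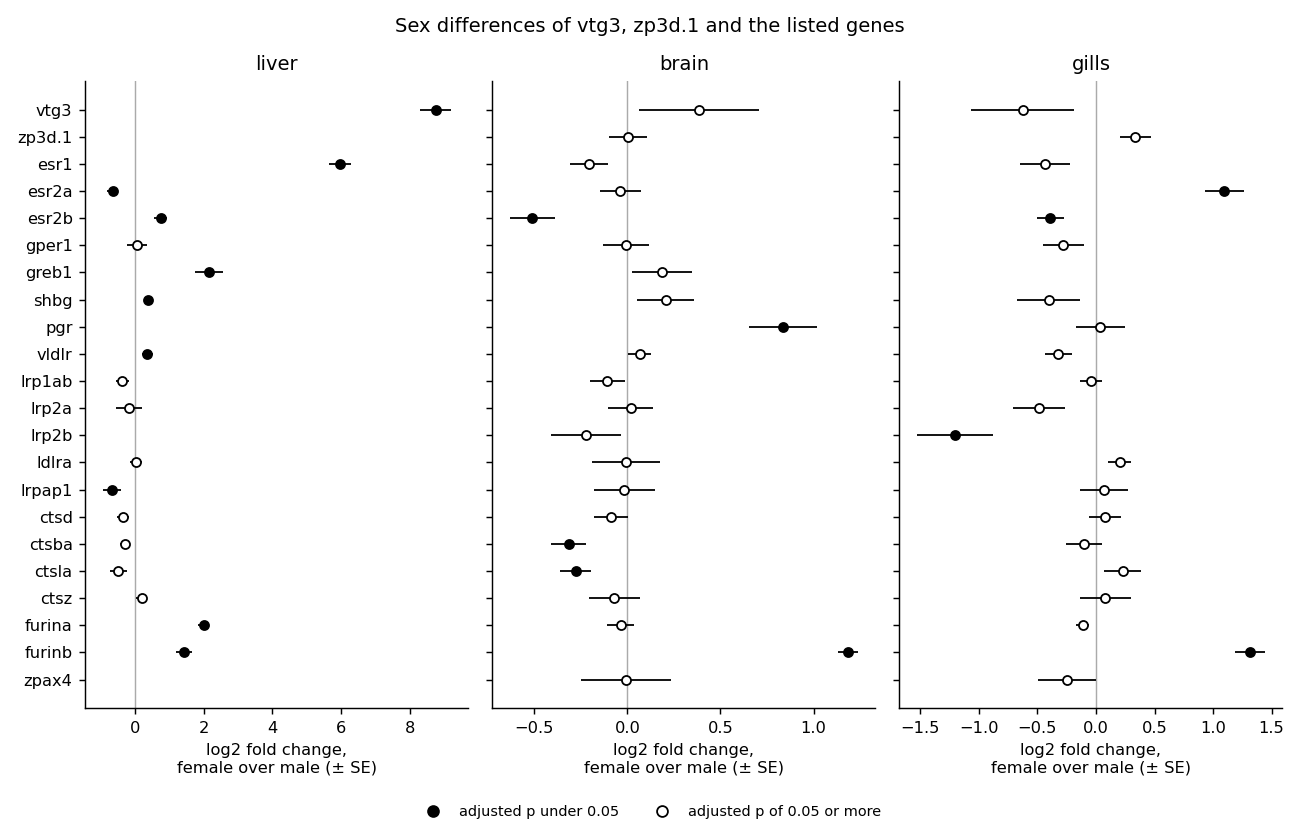
Log2 fold changes (female over male, bars SE) of vtg3, zp3d.1 and the listed genes in liver, brain and gills, from libraries with at least 1000000 counts and a matching X score. Filled points have an edgeR adjusted p under 0.05, and genes absent from a panel did not pass the filter on low counts there. Vtg3 at 8.75 and esr1 at 5.97 lie far from the other genes in liver, and the 3 panels have different horizontal scales.

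Genes of yolk uptake, tested in the tissues at hand and not in the ovary, were called in 1 of 4 tested in liver, 0 of 6 in brain and 2 of 6 in gills, where 32.4%, 7.24% and 13.5% of all genes were called. The gene called in liver with all libraries was vldlr, whose protein is the vitellogenin receptor of the oocyte in chicken, with a log2 fold change of 0.47 (SE 0.16), although its medians were 4.99 CPM in females and 5.15 CPM in males. The call was lost under RLE scaling (adjusted p of 0.0568), with library totals only (adjusted p of 0.755) and in livers of at least 1000000 counts (adjusted p of 0.0689), all in edgeR. With matching X scores lrpap1, a chaperone of these receptors, was also called, at -0.67 (SE 0.27). The 2 called in gills were both lower in females: lrp2b, a gene of the megalin group of endocytic receptors, at -1.24 (SE 0.32), with medians of 0.882 CPM in females and 2.22 CPM in males, and vldlr at -0.33 (SE 0.11), which fell short of the threshold without the male gill library whose X score went against the label (edgeR adjusted p of 0.0508).

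Among the 6 genes of yolk processing, furin genes were higher in females. Furin is a protease that cuts precursor proteins in the secretory route. Furina, in livers with a matching X score, ran from 304 through a median of 548 to 924 CPM in females and from 63.2 through 193 to 603 CPM in males, at a log2 fold change of 2.00 (SE 0.16), and it was not called in brain (-0.01) or gills (-0.11). Furinb was higher in females in each tissue, by 1.27 (SE 0.30) in liver, 1.15 (SE 0.06) in brain and 1.26 (SE 0.13) in gills. In brain it had medians of 67.8 CPM in females and 30.5 CPM in males, and in liver, where the medians were 1.41 CPM (female) and 0.659 CPM (male), its call was lost with library totals only (edgeR adjusted p of 0.0502). The cathepsins, lysosomal proteases that cut yolk proteins in oocytes, were not called in gills, and in liver only with library totals as scaling (ctsba -0.57, ctsla -0.81, both lower in females). In brain ctsba at -0.31 (SE 0.09) and ctsla at -0.28 (SE 0.08) were lower in females. Over all genes tested, the median log2 fold change was -0.03 in liver, -0.03 in brain and 0.01 in gills, while in brain 4.62% of genes were called higher in females and 2.62% higher in males, and in gills 6.02% were called higher in females and 7.45% higher in males.

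Of 13175 genes, those most like vtg3 over 33 female livers with a matching X score were atf4b, a transcription factor of the cellular stress response, at a Spearman correlation of 0.837, esr1 at 0.791, LOC120826873 at 0.766, adipor2, an adiponectin receptor, at 0.762, and cpda, a carboxypeptidase, at 0.753. None of them was among the 5 of the male livers. Lists of 5 among 13175 genes rarely share a gene by chance, so this lack of overlap does not by itself show a difference between the sexes. Esr1 and LOC120826873 also had large sex differences in level, the second with a median of 197 CPM in females and 0.671 CPM in males, while atf4b had 97.8 CPM in females and 46.2 CPM in males. For zp3d.1 in brain the correlations were lower, led by pla2g6, a phospholipase gene, at 0.575 over 38 females and by LOC120810270 at 0.686 over 39 males, of 18345 genes. No gene was among the leading 5 in both sexes, which for lists this short does not show a difference between the sexes either.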

How the data were processed

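Counts per gene were deposited by the authors as raw whole numbers, 1 table per tissue and 1 column per library, per the file headers. The submitters' processing notes name fastp, STAR and HTSeq, while the genome build, annotation and strand setting are not given in the sources used here, so genes that overlap or have near-identical copies, other vitellogenin genes included, are uncertain. Reads in no gene (12.9% in brain, 11.0% in gills, 7.68% in liver) were left out of totals. Genes were named with the RefSeq table of fGasAcu3.hap1.1, from which no position is printed. Sexes were compared per tissue with edgeR 4.0.16 in R 4.3.3 (TMM, filterByExpr, robust quasi-likelihood test, Benjamini-Hochberg adjustment over all genes tested, call at an adjusted p under 0.05), interactions in 1 fit of all 227 libraries. DESeq2 1.42.0 and voom of limma 3.58.1 with fish as a block were alternatives. The edgeR steps were tested on simulated counts with known changes. Differences and correlations within fish used log2 CPM (prior count 0.5) and permutation tests with 100000 resamples, two-sided, in Python 3.11.15. Within 1 tissue, and in differences and correlations within fish, p-values measure the spread between fish. The edgeR interaction fit has no term for the fish, so its p-values treat the tissues of a fish as independent. Detection limits are 3 counts and cover counting error only, since the tables hold reads, not unique molecules.

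Named genes were the 2 genes, other egg genes and lists of estrogen signalling, yolk uptake and yolk processing, with the 5 genes most like each of the 2 in its highest tissue. Members and lists were chosen with earlier results of these data known. The X score, the level of Y genes, the division at 100 CPM and the 41 relations with markers, depth, esr1 and co-varying genes were added after the levels had been seen. The replicate numbers of females and males come from separate fish and do not pair them.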

Additional observations from a re-analysis of the deposited data

Results flagged for a closer look

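The sex difference of vtg3 differed between tissues by a test of the difference itself. The log2 fold change (female over male) in liver exceeded that in brain by 2.77 (SE 0.73, edgeR adjusted p of 0.00176) and that in gills by 4.30 (SE 0.75, edgeR adjusted p of 1.04e-06). This edgeR fit has no term for the fish, and with the fish as a random block in voom the differences were 6.83 and 8.31. In libraries of at least 1000000 counts with a matching X score the edgeR differences were 8.21 and 9.23. In those libraries the sex difference was 8.75 in liver, with 32 of 33 females above all 30 males, against 0.38 in brain and -0.63 in gills. The X score left out livers in which the sexes overlapped, among them female replicates 17 and 23, whose Y level matched the label. Over all livers of at least 1000000 counts, 9 of 35 females lay above all 32 males.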

How the results depend on the processing

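Vtg3 in liver was called higher in females under each alternative, with log2 fold changes from 3.37 (library totals only) to 8.75. It was 6.29 without livers whose X score goes against the label, 3.68 with at least 1000000 counts and 3.48 in DESeq2. With the replicate number as a block it was 7.86, in a fit of the numbers both sexes share. That block changed no other call of the 2 genes, and ended the calls of ctsba and ctsla in brain and of vldlr in gills. The numbers do not pair fish. The sex difference of vtg3 or zp3d.1 in brain and gills was called under no alternative, and counts of called genes stayed within 1.5 times. In liver 4265 genes were called, 6172 with deep libraries of matching X score, and the split of 2294 higher and 1971 lower in females became 1848 and 2497 under RLE scaling, 1966 and 2939 in DESeq2, and 865 and 5392 with library totals only, where the median log2 fold change of all genes was -0.48, against -0.03 under TMM.

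Zp3d.1 in liver, tested without a filter on low counts, gave -0.02 (edgeR adjusted p of 0.979). Its interaction for liver against gills was called with library totals only (-0.70, adjusted p of 0.0306), and for liver against brain it was 0.038 with matching X scores and -0.08 with all libraries. The male vtg3 difference between gills and brain was called with matching X scores (-1.01), and the male zp3d.1 difference between liver and gills was not called with TMM-scaled totals (-0.26).

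None of the 18 correlations passed by Spearman in any setting (by Pearson, vtg3 and zp3d.1 in male liver passed with all libraries, at 0.57 and a permutation adjusted p of 0.00558), and 13 of their 108 alternatives changed sign, to values between -0.18 and 0.124. With TMM-scaled totals they were -0.057 (vtg3 and zp3d.1, female brain), -0.15 (vtg3, liver and brain, females), 0.0063 and 0.020 (zp3d.1, gills and brain, females and males), -0.052 and -0.15 (zp3d.1, liver and brain, females and males). With all libraries they were -0.15 (vtg3 and zp3d.1, female liver) and -0.18 (zp3d.1, liver and brain, males). For zp3d.1 in gills and brain they were 0.039 (females) and 0.124 (males) without the 2 farthest fish, 0.039 and 0.101 likewise with matching X scores, and 0.032 in males with a prior count of 2. The cause of these changes was not tested. Among the listed genes, 122 alternatives kept direction and call, 7 gained a call, 9 lost one and 1 changed sign: shbg in liver, at -0.038 with library totals only.

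Depth limits zp3d.1 in liver and both genes in the 11 libraries below 1000000 counts. It also limits vtg3 in brains and gills of low level, where 2 female gills and 1 male brain held 3 counts or fewer.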

Other observations

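The 6 liver markers were lower in female than in male livers as shares of the library, with medians of 6601 CPM in females and 24130 CPM in males. The sexes overlapped: several female livers with a matching X score lay within the male range, among them replicate 34 with 24766 CPM of the markers and 7579 CPM of vtg3, and replicate 21 with 23333 CPM of the markers and 167 CPM of vtg3.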
